A study of Mus musculus with 12 samples.

Results

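The genes described here are S100a8, S100a9, Csf3r, Retnlg, Ly6c2, Nos2 and Ido1, chosen by name as genes of neutrophils and of suppressive myeloid cells. The rule gave 9 of the 21960 genes listed for each tumor, and 7 of them are described. It uses names and no measured value, but it was written with earlier results of these data known, so the choice was not blind to them. RNA was sequenced from whole, snap-frozen mammary tumors of 12 female MMTV-PyMT mice on the C57BL/6 strain, in which the MMTV promoter drives the polyoma middle T oncogene in mammary epithelium. The 4 groups of 3 tumors received a control antibody (IgG1), an antibody against the receptor PD-1 (anti-PD-1), doxorubicin with the control antibody (DOX/IgG1) or doxorubicin with the antibody against PD-1 (DOX/anti-PD-1). The IgG1 and anti-PD-1 groups were treated from a tumor diameter of 0.6 cm, with 20 mg/kg antibody first and 10 mg/kg up to day 18. The groups with DOX were treated from a diameter of 1 cm, with 5 mg/kg doxorubicin each week and 10 mg/kg antibody after it, for 5 weeks. Doxorubicin therefore cannot be told apart from the larger starting size, the lower first dose of antibody and the other schedule. Values are in TPM, a relative abundance corrected for transcript length. The unit is the one the study names, since the values alone cannot tell it from another unit per length, and the listed genes of a tumor sum to between 609418 and 725506. The sequencing depth of each tumor is unknown because TPM hold no counts.

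Neutrophils carry large amounts of the proteins S100A8 and S100A9, respond to the growth factor G-CSF through the receptor encoded by Csf3r, and in the mouse express the secreted protein encoded by Retnlg, while Ly6c2 marks inflammatory monocytes. Inducible nitric oxide synthase (Nos2) makes nitric oxide from arginine, indoleamine 2,3-dioxygenase (Ido1) starts the breakdown of tryptophan, and T cells need both amino acids to divide. Myeloid cells with these enzymes are known in mammary tumors for restraining T cells, but epithelial and other cells can express the same genes, so neither enzyme marks a cell type in whole tissue.

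The name of the gene group was checked against 33 other genes of neutrophils and their granules. Of these, 9 were listed at 0 in all 12 tumors, namely Camp, Cebpe, Ctsg, Elane, Ly6g, Prok2, Stfa1, Stfa2 and Stfa2l1, and 15 reached 1 TPM in at least 3 tumors. Mpo was above 0 in 1 tumor (1.75 TPM) and Cxcr2 in 6 tumors, at up to 0.600 TPM. The summed level of the list was 9085 TPM in DOX/IgG1 replicate 1 and 2258 to 5696 TPM in the other 11 tumors. Lcn2 made up 60.3% of it (mean 2581 TPM), followed by Ltf (mean 1525 TPM) and G0s2 (mean 135 TPM), and without that tumor the share of Lcn2 was 69.1% and the mean of Ltf 1011 TPM. Lcn2 and Ltf are also expressed by mammary epithelium. Besides these 3 the 15 were Il1b, Asprv1, Padi4, Prtn3, Clec4d, Mmp9, Il1r2, Hdc, Wfdc21, Cd177, Stfa3 and Fpr1, of which Padi4 (mean 4.06 TPM, above 0 in 11 tumors), Prtn3 (2.96 TPM, in 9) and Clec4d (2.38 TPM, in 10) are also genes of myeloid cells. The list was thus mixed, with Ly6g, Elane and Camp at 0 and other genes at a few TPM, and the genes are called by their names rather than by a cell type.

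**Figure D1:**
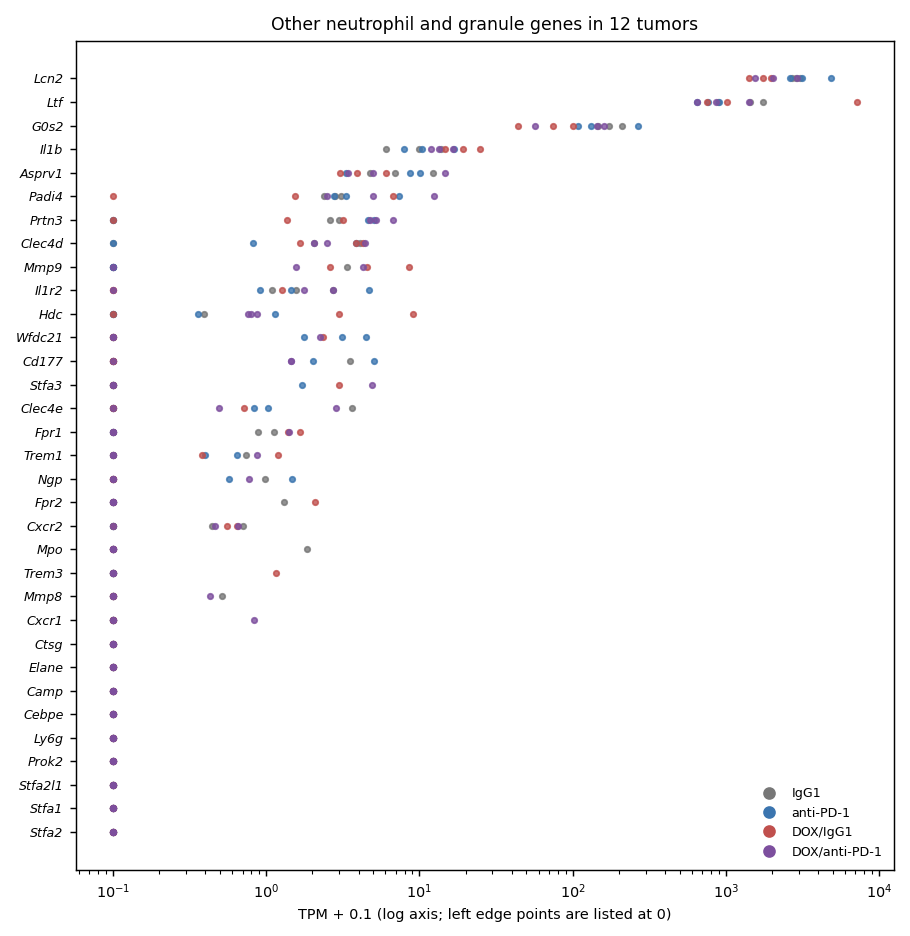
Levels of 33 other neutrophil and granule genes, 1 point per tumor, colored by group; the horizontal axis is TPM with 0.1 added, on a log axis, and points at the left edge are listed at 0. Lcn2, Ltf and G0s2 were high in all 12 tumors, and the bottom 9 genes were at 0 in all of them.

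DOX/IgG1 replicate 1 stood apart from the other tumors. Its mean Pearson correlation with the others, across genes on the log2 scale, was 0.937, the lowest, against 0.943 to 0.960 for the other 11, and it had the fewest genes above 0 (13856). The column header of this tumor holds the word test. Its summed level of 5 erythroid genes was 2346 TPM, against 41.9 to 297 TPM in the other 11 tumors, and its Ltf level was 7185 TPM against at most 1758 TPM elsewhere. The part of blood RNA or of sample handling in its values was not tested. Many of the results that rest on this tumor are given with and without it. The headers of the 3 DOX/anti-PD-1 tumors also carry another suffix than those of the other 9 tumors, and what the suffix stands for cannot be told apart from the treatment.

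By mean TPM over the 12 tumors the order of the 7 genes was Ido1 (46.5 ± 44.9, SD), S100a8 (3.77 ± 3.25), Ly6c2 (2.59 ± 3.32), Csf3r (1.65 ± 1.16), S100a9 (0.550 ± 0.844), Nos2 (0.319 ± 0.635) and Retnlg (0.244 ± 0.846). No neighbors in this order differed beyond their spread of 1 SD, a spread between tumors that does not pair the genes within a tumor. Within tumors, Ido1 was above S100a8 in all but DOX/IgG1 replicate 1 (2.93 against 5.27 TPM). Ido1 was the gene above 0 in all 12 tumors, and its median level stood at the 76.0 percentile of all listed genes. All but Nos2 and Retnlg, 5 of the 7, reached 1 TPM in at least 3 tumors. Whether a gene could be tested therefore depended on its level, and between 3 and 5 of the 7 passed this filter in each comparison.

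**Figure D2:**
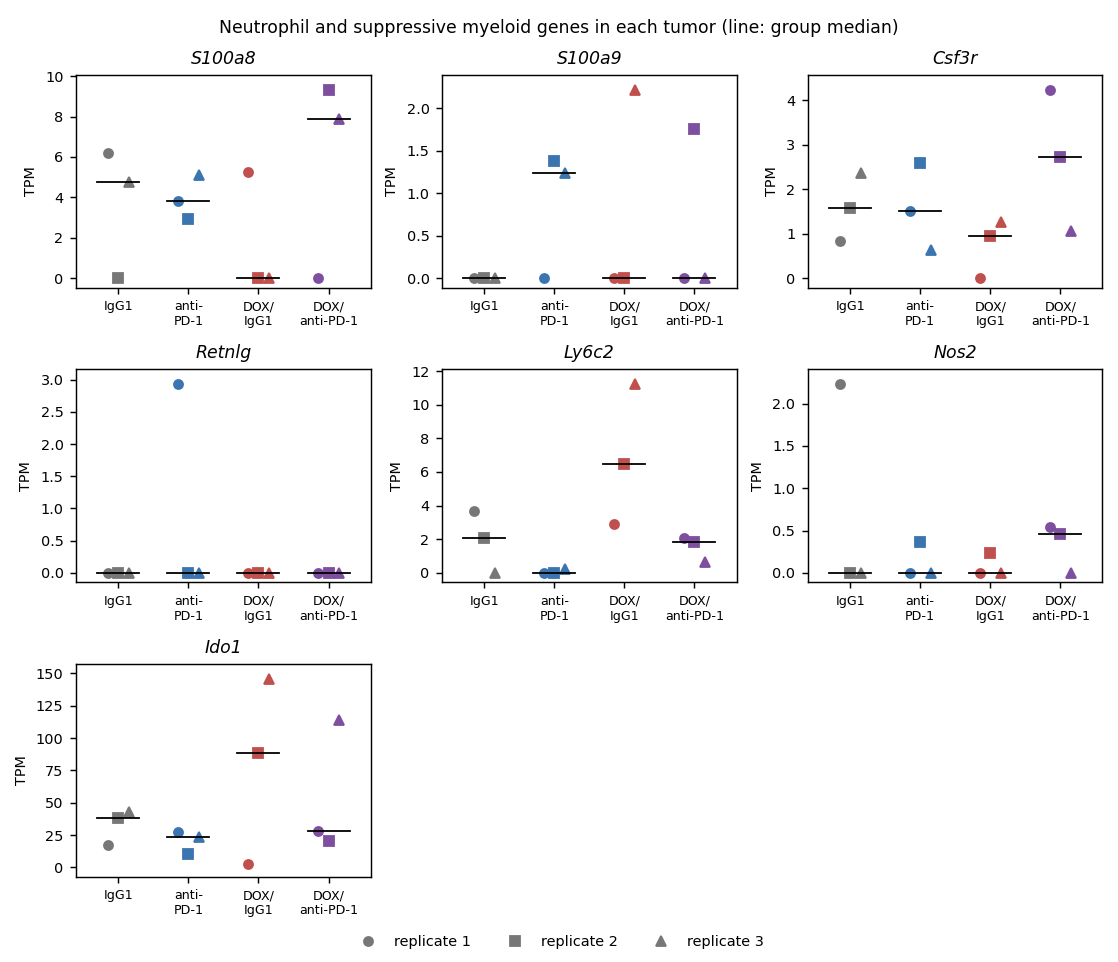
TPM of the 7 genes in each of the 12 tumors by treatment group; markers give the replicate number and the line the group median. Ly6c2 in DOX/IgG1 (2.91 to 11.2 TPM) lay above DOX/anti-PD-1 (0.620 to 2.07 TPM), and Retnlg was above 0 in 1 tumor.

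S100a8 (ENSMUSG00000056054, chr3:90668978-90670035, GRCm38, plus strand) and S100a9 (ENSMUSG00000056071, chr3:90692632-90695721, minus strand) encode the subunits of calprotectin and lie 22.6 kb apart. S100a8 was at 6.20, 0 and 4.74 TPM in the IgG1 tumors, 3.80, 2.92 and 5.11 TPM in the anti-PD-1 tumors, 5.27, 0 and 0 TPM in the DOX/IgG1 tumors and 0, 9.33 and 7.89 TPM in the DOX/anti-PD-1 tumors. It was listed at 0 in 4 tumors of 3 groups, the lowest value above 0 was 2.92 TPM, and every pair of groups overlapped. S100a9 was at 0 in all 3 IgG1 tumors, at 0, 1.38 and 1.24 TPM with anti-PD-1, at 0, 0 and 2.22 TPM with DOX/IgG1 and at 0, 1.76 and 0 TPM with DOX/anti-PD-1. It was above 0 in 4 tumors, and S100a8 was above 0 in 3 of these. The transcripts compared are of like length (486 and 519 bases). Across the 12 tumors their Pearson r was 0.05 (two-sided permutation p 0.891) and their Spearman rho 0.04 (permutation p 0.913), and without IgG1 replicate 2 and DOX/IgG1 replicate 2, 2 of the 4 tumors with S100a8 at 0, r was -0.19.

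Csf3r (ENSMUSG00000028859, chr4:126024550-126044440, plus strand) was at 0.830, 1.57 and 2.37 TPM in the IgG1 tumors, 1.52, 2.58 and 0.640 TPM with anti-PD-1, 0, 0.940 and 1.26 TPM with DOX/IgG1 and 4.24, 2.73 and 1.06 TPM with DOX/anti-PD-1. The highest value was in DOX/anti-PD-1 replicate 1, the only 0 was in DOX/IgG1 replicate 1, and the groups overlapped. Of its 75-base windows, 109 of 3407 (3.20%) also occur in transcripts of other genes. Retnlg (ENSMUSG00000022651, chr16:48872621-48874496, plus strand) was at 2.93 TPM in anti-PD-1 replicate 1 and at 0 in the other 11 tumors, so limma did not test it. In a whole tumor, fewer cells of a type and less RNA per cell cannot be told apart, for this and every other gene.

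Genes that supply or attract granulocytes were measured beside these markers. Of 15 such genes, Csf2 and Il17a were at 0 in all 12 tumors, and the most abundant were Kitl (mean 67.4 TPM), Csf1 (29.9 TPM) and Cxcl12 (28.1 TPM). Of 8 genes for receptors of S100A8 and S100A9 and their partners, all 8 reached 1 TPM in at least 3 tumors, with Bsg (mean 575 TPM), Cd14 (113 TPM) and Myd88 (60.6 TPM) highest. Each of these 3 was above S100a8 in all 12 tumors. Of 17 genes of squamous keratinocytes, which can also express S100a8 and S100a9, the summed level was 20.3 to 84.3 TPM, with Sbsn the most abundant (mean 13.9 TPM) and Sprr1b at 0.

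Ly6c2 (ENSMUSG00000022584, chr15:75108158-75111970, minus strand) encodes a surface protein of inflammatory monocytes and lies 59.3 kb from its relative Ly6c1. Reads can be shared by these genes: 164 of the 748 windows of 75 bases in the Ly6c2 transcript (21.9%) also occur in Ly6c1, and their coding sequences of 393 bases differ at 9 positions (97.7% identity). The first 150 coding bases from the GENCODE annotation of GRCm38 hold 6 of the 9 differences, in capitals, and are printed to show how few bases tell a read of one gene from a read of the other.
Ly6c2: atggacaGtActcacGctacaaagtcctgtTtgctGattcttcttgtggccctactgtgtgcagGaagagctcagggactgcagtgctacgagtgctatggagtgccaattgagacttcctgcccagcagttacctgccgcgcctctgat
Ly6c1: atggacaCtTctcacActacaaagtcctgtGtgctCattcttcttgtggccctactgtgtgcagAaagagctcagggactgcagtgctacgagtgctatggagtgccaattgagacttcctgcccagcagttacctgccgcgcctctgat
The longest run shared without a difference was 188 bases, and 114 of the 319 coding windows of 75 bases (35.7%) were identical. For S100a8, S100a9, Retnlg, Nos2 and Ido1, 0 windows occurred in another gene.

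Ly6c2 was at 3.65, 2.09 and 0 TPM in the IgG1 tumors, 0, 0 and 0.210 TPM with anti-PD-1, 2.91, 6.48 and 11.2 TPM with DOX/IgG1 and 2.07, 1.86 and 0.620 TPM with DOX/anti-PD-1. The anti-PD-1 tumors were the lowest group, and the DOX/anti-PD-1 tumors all lay between them and the DOX/IgG1 tumors, with no overlap on either side. Group means were 1.91 ± 1.83 TPM for IgG1, 0.0700 ± 0.121 for anti-PD-1, 6.87 ± 4.17 for DOX/IgG1 and 1.52 ± 0.784 for DOX/anti-PD-1 (SD, n = 3 each). Of 13 other monocyte genes, all reached 1 TPM in at least 3 tumors, led by Fn1 (mean 434 TPM), Vcan (65.9 TPM) and Hp (58.6 TPM), which other cells of the tumor also express.

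Nos2 (ENSMUSG00000020826, chr11:78920787-78960254, plus strand), which makes nitric oxide from arginine, was at 2.23 TPM in IgG1 replicate 1, 0.360 TPM in anti-PD-1 replicate 2, 0.240 TPM in DOX/IgG1 replicate 2 and 0.540 and 0.460 TPM in DOX/anti-PD-1 replicates 1 and 2. It was listed at 0 in the other 7 tumors, every group held at least 1 tumor at 0, and limma did not test it. Every pair of groups overlapped, with exact two-sided permutation p of 0.4 to 1. The most abundant of 21 other genes of arginine uptake and metabolism were Sat1 (mean 266 TPM), Azin1 (141 TPM) and the arginine transporter Slc7a2 (73.2 TPM), 17 reached 1 TPM in at least 3 tumors and Agmat was at 0.

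Ido1 (ENSMUSG00000031551, chr8:24584136-24597009, minus strand) lies 7.80 kb from Ido2 and was at 17.2, 37.9 and 42.6 TPM in the IgG1 tumors, 27.4, 10.6 and 23.7 TPM with anti-PD-1, 2.93, 88.2 and 146 TPM with DOX/IgG1 and 27.8, 20.2 and 114 TPM with DOX/anti-PD-1. DOX/IgG1 held both the lowest tumor (replicate 1) and the highest (replicate 3), 49.8 times apart, and every pair of groups overlapped. Group means were 32.6 ± 13.5 TPM for IgG1, 20.6 ± 8.87 for anti-PD-1, 79.0 ± 71.9 for DOX/IgG1 and 54.0 ± 52.1 for DOX/anti-PD-1 (SD, n = 3 each). Of 18 other genes of tryptophan uptake and breakdown, 15 reached 1 TPM in at least 3 tumors, led by Slc3a2 (mean 132 TPM), Ahr (67.4 TPM) and Slc7a5 (50.7 TPM), and Aadat and Cyp1a1 were at 0.

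DOX/IgG1 was compared with IgG1 to ask how tumors given doxorubicin differ under the control antibody. Differences were tested with limma on log2(TPM + 1), and a gene was called at an adjusted p below 0.1 with an absolute log2 fold change above 1. Of the 4 described genes that could be tested, 0 were called, against 5 of all 13874 tested genes (0.0360%), and 1 of 4 had an unadjusted p below 0.05, against 7.73% of all tested genes. This was Ly6c2, with a log2 fold change of 1.55 (SE 0.68, adjusted p 0.645, exact two-sided permutation p 0.2). The smallest exact p that 3 tumors against 3 allow is 0.1. IgG1 replicate 1 was above DOX/IgG1 replicate 1 in Ly6c2, and groups did not overlap for 0 of the 4 genes, against 14.0% of all tested genes. The log2 fold change was 0.25 for Ido1 (SE 1.16, 95% interval -2.38 to 2.87, adjusted p 0.972), -0.91 for S100a8 (SE 0.96) and -0.62 for Csf3r (SE 0.55). The median over all tested genes was 0.12.

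DOX/IgG1 replicate 1 decided much of this comparison. Without it 122 of 13874 genes (0.879%) were called, and 0 of the 4 were among them by limma, with 2 of 4, Ido1 and Ly6c2, at an unadjusted p below 0.05 against 13.0% of all tested genes. The log2 fold change of Ido1 was then 1.87 (SE 0.42, adjusted p 0.131), and that of Ly6c2 1.98 (SE 0.68, adjusted p 0.273). Over all alternatives tried the adjusted p ran from 0.131 to 0.986 for Ido1 and from 0.273 to 0.933 for Ly6c2. Leaving out IgG1 replicate 1, IgG1 replicate 2, IgG1 replicate 3 or DOX/IgG1 replicate 3 left 0 genes called by limma in place of 5, and leaving out DOX/IgG1 replicate 2 left 2. The log2 fold change of Ido1 was negative without IgG1 replicate 1, DOX/IgG1 replicate 2 or DOX/IgG1 replicate 3, down to -0.75, so its direction rested on single tumors. That of Ly6c2 stayed between 0.90 and 2.01 whichever tumor was left out, and was 2.70 with a pseudocount of 0.1 in place of 1, so its size depended on the pseudocount.

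**Figure D3:**
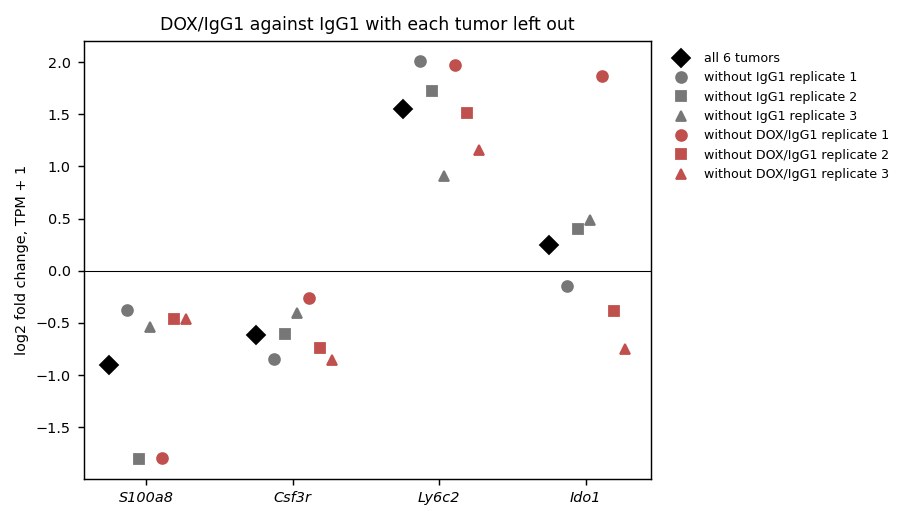
Log2 fold change of S100a8, Csf3r, Ly6c2 and Ido1 in DOX/IgG1 against IgG1, from limma on TPM with 1 added; diamonds use all 6 tumors and the other markers leave out 1 tumor each. Ido1 moved from 0.25 to 1.87 without DOX/IgG1 replicate 1, while Ly6c2 kept to 0.90 to 2.01.

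DOX/anti-PD-1 was compared with anti-PD-1 to ask the same under the antibody against PD-1. By limma 0 of 4 tested genes of the 7 were called, as were 0% of all 13736 tested genes, and 0 of 4 had an unadjusted p below 0.05, against 8.63% of all. Groups did not overlap for 0 of these 4 and for 14.9% of all tested genes. The log2 fold changes were 1.04 for Ido1 (SE 0.60, adjusted p 0.656), 0.48 for Csf3r, -0.11 for S100a8 and -0.32 for S100a9. With 1 tumor left out they ran from 0.30 to 1.52 for Ido1, 0.18 to 0.85 for Csf3r, -0.71 to 0.98 for S100a8 and -0.80 to -0.07 for S100a9. All 3 DOX/anti-PD-1 values of Ido1 lay above its lowest anti-PD-1 value, and the groups overlapped. Ly6c2 was not tested by limma here because only 2 of the 6 tumors reached 1 TPM, but all 3 DOX/anti-PD-1 tumors were above all 3 anti-PD-1 tumors (exact two-sided permutation p 0.1). Of the lists of other cells, 4 of 5 adipocyte genes were higher at an unadjusted p below 0.05, Adipoq (1.76), Fabp4 (1.91), Plin1 (1.47) and Lep (1.34), with a median of 1.47, and 3 of 6 basal epithelial genes, Acta2 (0.93), Myh11 (0.93) and Oxtr (0.87), with a median of 0.67, and limma called 0 of either. The summed adipocyte list, led by Adipoq (mean 55.9 TPM) and with no gene at 0 in all tumors, was at 36.1, 163 and 104 TPM with IgG1, 45.1, 38.1 and 69.7 TPM with anti-PD-1, 81.1, 384 and 56.1 TPM with DOX/IgG1 and 476, 101 and 107 TPM with DOX/anti-PD-1. The part of these cells in the values of Ido1 and Ly6c2 was not tested here. The median over all tested genes was 0.11, and scaling the tumors by the median of ratios moved it by 0.11 to 0.00, a shift as large as the value of S100a8.

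**Figure D4:**
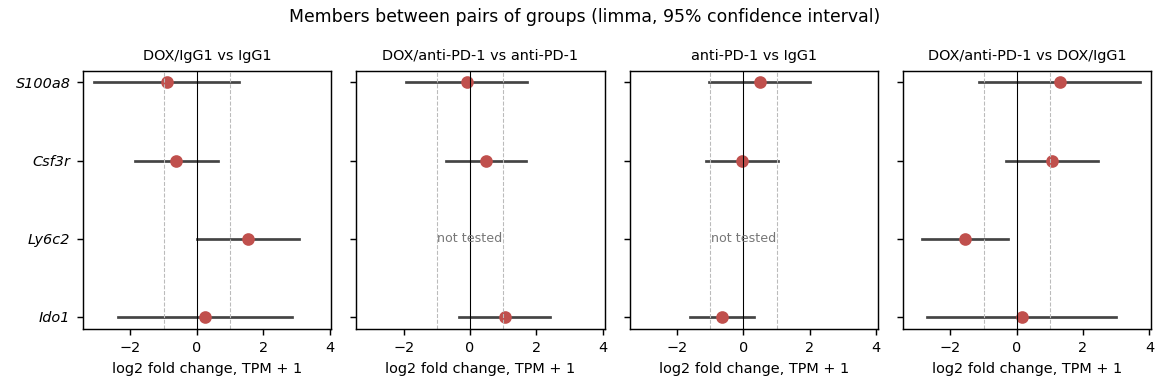
Log2 fold change (TPM with 1 added) with 95% confidence interval from limma for 4 genes in the 4 comparisons of pairs of groups; dashed lines mark 1 and -1. The interval of Ido1 in DOX/IgG1 against IgG1 ran from -2.38 to 2.87, and that of Ly6c2 in DOX/anti-PD-1 compared with DOX/IgG1 from -2.85 to -0.25.

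The antibodies were compared without and with doxorubicin to ask how tumors differ under the antibody against PD-1. In anti-PD-1 against IgG1, limma called 0 of 3 tested genes of the 7 and 0% of 13692 genes in all, 0 of 3 had an unadjusted p below 0.05 against 4.60% of all, and groups were apart for 0 of 3 against 9.88% of all. The log2 fold changes were 0.49 for S100a8, -0.03 for Csf3r and -0.64 for Ido1, and the sign for Csf3r turned with the median of ratios. With 1 tumor left out that of Ido1 ran from -1.03 to -0.24. Ly6c2 was not tested by limma here either, and its groups overlapped (log2 difference -1.19, exact two-sided permutation p 0.4). For DOX/anti-PD-1 versus DOX/IgG1, limma called 0 of 4 genes and 0% of 13946, 1 of 4 had an unadjusted p below 0.05 against 4.70% of all, and groups were apart for 1 of 4 against 10.2% of all. Both counts are Ly6c2, with a log2 fold change of -1.55 (SE 0.57, adjusted p 0.988), lower in 3 of 3 tumors (exact two-sided permutation p 0.1). Of 12 other tested monocyte genes 9 were higher, with a list median of 0.28 beside -0.04 for all genes, and 2 were at an unadjusted p below 0.05, Fcgr1 (1.60) and Cx3cr1 (-1.05). The sign of this median turned without DOX/IgG1 replicate 1, to -0.14 beside -0.07, with 1 gene higher and 2 lower at that p. Of 13 macrophage genes 11 were lower with all tumors, with a median of -0.42, and 1 was at that p, Mertk (-0.77). Their median was -0.46, with 0 at that p, without DOX/IgG1 replicate 1. With all tumors the other log2 fold changes of described genes were 0.15 for Ido1, 1.07 for Csf3r and 1.29 for S100a8. With 1 tumor left out these ran from 0.71 to 1.43 for Csf3r and 0.69 to 2.38 for S100a8, and that of Ly6c2 from -1.98 to -1.16, while a pseudocount of 0.1 gave -2.06 for Ly6c2. Without DOX/IgG1 replicate 1 they were -1.98 for Ly6c2 (adjusted p 0.454) and -1.47 for Ido1 (adjusted p 0.674), so the sign for Ido1 turned. In that fit 2 of 5 T cell, 3 of 6 basal epithelial and 3 of 10 granulocyte supply genes were lower at an unadjusted p below 0.05. Their list medians were -1.38, -0.69 and -0.19 beside -0.07 for all genes. The share of all genes at that p was not computed for this fit, so its counts have no share beside them. With all tumors 0 genes of these lists were at that p, with medians of -0.51, 0.04 and -0.35. The part of these cells in the values was not tested. Over the alternatives the adjusted p ran from 0.454 to 1 for Ly6c2 and from 0.674 to 1 for Ido1. These comparisons share tumors with those above. The DOX/IgG1 tumors are the treated group in the first comparison and the control group here, so the 1.55 and -1.55 of Ly6c2 rest on the same 3 tumors.

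All 12 tumors were then fitted together. For DOX over both antibodies, 0 of 5 tested genes of the 7 were called by limma against 13 of 14735 genes (0.0882%), and 1 of 5 had an unadjusted p below 0.05 against 11.9% of all. This was Ly6c2, with a log2 fold change of 1.37 (SE 0.42, adjusted p 0.261, exact two-sided permutation p 0.01). It ran from 1.04 to 1.60 with 1 tumor left out and was 3.01 with a pseudocount of 0.1. The smallest p this permutation allows is 0.005. Without DOX/IgG1 replicate 1, limma called 301 genes (2.04%) and 1 of the 5, Ly6c2, with a log2 fold change of 1.58 (SE 0.42, adjusted p 0.0944), and over all alternatives its adjusted p ran from 0.0944 to 0.434. The count of 13 called genes was 0 without IgG1 replicate 2 or anti-PD-1 replicate 1, 3 without anti-PD-1 replicate 2, 2 without DOX/IgG1 replicate 3, and 5, 20 and 7 without DOX/anti-PD-1 replicates 1, 2 and 3. The log2 fold changes of Ido1 (0.64), S100a8 (-0.51) and Csf3r (-0.07) had 95% intervals that include 0. That of Ido1 was 0.15 without DOX/IgG1 replicate 3 and 1.45 (SE 0.43, adjusted p 0.125) without DOX/IgG1 replicate 1, the lowest and highest with 1 tumor left out. In the fit without replicate 1, 2 of 5, Ido1 and Ly6c2, had an unadjusted p below 0.05 against 15.4% of all, and over the alternatives the adjusted p of Ido1 ran from 0.125 to 0.962. No fold is given for S100a9 in these fits because it was listed at 0 in every IgG1 tumor.

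For anti-PD-1 over both chemotherapy arms, limma called 0 of 5 tested genes against 1 of 14735 genes (0.00679%), and 1 of 5 had an unadjusted p below 0.05 against 4.77% of all. This was Ly6c2, with a log2 fold change of -1.37 (SE 0.42, adjusted p 0.793, exact two-sided permutation p 0.02). It ran from -1.69 to -1.14 with 1 tumor left out and was -2.37 with a pseudocount of 0.1. The 1.37 for DOX and this -1.37 come from the same 4 group means, so the second is not a separate result. The exact permutation p of either was not adjusted over genes or comparisons. The order of Ly6c2 in the 4 groups was thus lowest with anti-PD-1 and highest with DOX/IgG1, with the limit that its reads are shared in part with Ly6c1, whose log2 fold change was 0.31. Of 13 monocyte genes 1 had an unadjusted p below 0.05, Fcgr1 (0.91), with a list median of -0.01 beside -0.03 for all genes. In the fit without DOX/IgG1 replicate 1, 0 were higher and 2 lower at that p, with a median of -0.04 beside -0.05. With all tumors 12 of 13 macrophage genes were lower, with a median of -0.32, and 2 were at an unadjusted p below 0.05, Mertk (-0.56) and Cd68 (-0.72). The log2 fold change was 0.89 for S100a8 and 0.52 for Csf3r, and neither turned sign under an alternative. For Ido1 it was -0.25, and -1.06 (adjusted p 0.621) without DOX/IgG1 replicate 1. In that fit 2 of the 5 genes were lower at an unadjusted p below 0.05, and limma called 0. The share of all genes at that p was not computed without this tumor, so the counts of this fit have no share beside them. With 1 tumor left out the value of Ido1 ran from -1.06 to 0.25, and its sign turned in 2 of 12 fits.

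Genes of the salivary gland were high in the DOX/IgG1 tumors, where Ly6c2 was high. The summed level of 4 such genes was 52.1, 98.0 and 113 TPM in the DOX/IgG1 tumors, in the order of their Ly6c2 levels, against 5.40 to 23.3 TPM in the other 9 tumors. By group these were 6.41, 16.8 and 5.93 TPM with IgG1, 22.4, 5.40 and 22.5 TPM with anti-PD-1 and 19.7, 16.0 and 23.3 TPM with DOX/anti-PD-1. In these 9 tumors the order was another, since anti-PD-1 replicates 1 and 3, at 22.4 and 22.5 TPM, held Ly6c2 at 0 and 0.210 TPM. Amy1 was the most abundant (mean 17.1 TPM), none of the 4 was at 0 in all tumors, and Bpifa2 was above 0 in the 3 DOX/IgG1 tumors only. Bpifa2 and Smr3a were at 0 in every IgG1 tumor and passed the filter through the DOX/IgG1 tumors alone, so no fold is given for them, and Amy1 had a log2 fold change of 1.88 in DOX/IgG1 against IgG1 (adjusted p 0.460). The part of salivary tissue in the values of Ly6c2 was not tested.

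The test of whether the difference with DOX differs between antibodies called 0 of 5 genes by limma against 0.00679% of all, and 0 of 5 had an unadjusted p below 0.05 against 4.71% of all. Its log2 difference was 0.79 for Ido1 (SE 1.48), 1.10 for Csf3r (SE 0.73), 0.80 for S100a8 (SE 1.38) and -0.36 for Ly6c2 (SE 0.84). The signs for Ido1 and Ly6c2 turned with 1 tumor left out, from -0.83 to 1.78 and from -0.83 to 0.28. That of Ly6c2 also turned with a pseudocount of 0.1, to 0.62.

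Related genes are given by counts in DOX/IgG1 against IgG1, where 7.73% of all tested genes had an unadjusted p below 0.05, and 13.0% without DOX/IgG1 replicate 1. In the full comparison limma called 0 genes of the lists that follow, and the median of ratios moved the median of all tested genes by 0.10, so list medians are read beside the 0.12 of all tested genes. Of 17 tested arginine genes, 2 had an unadjusted p below 0.05, both higher, Sat1 (log2 fold change 0.87) and Oat (0.91), and the list median was 0.11. Without DOX/IgG1 replicate 1 they were 3, with Slc7a2 moving from 0.39 to 1.27 (adjusted p 0.145), and the list median was -0.05. Of 11 tested tryptophan genes, 1 had an unadjusted p below 0.05, Slc7a5 (-0.99), with a list median of 0.04. It was again the only one without that tumor, where the list median was 0.22. Of 12 tested other genes of suppressive myeloid cells, 1 was higher at that p, Ptges (1.17), with a list median of 0.04. For DOX over both antibodies 2 were higher, Ptges (1.30) and Cd274 (0.78), against 11.9% of all. Limma called 0 there, and 1 without DOX/IgG1 replicate 1. In DOX/anti-PD-1 against anti-PD-1, 3 were higher and 1 lower, against 8.63% of all, with a median of 0.46 beside 0.11. Of 11 tested neutrophil and granule genes, 2 were higher, Il1b (0.95) and Mmp9 (1.79), and 2 lower, Lcn2 (-0.76) and G0s2 (-1.33), at an unadjusted p below 0.05, with a list median of -0.19. Without that tumor 2 did, both lower, and limma called G0s2 (-1.59, adjusted p 0.0820). The list median was then -0.53 beside 0.15 for all tested genes. Of 11 tested monocyte genes, 1 had an unadjusted p below 0.05, F13a1 (0.69), with a list median of 0.14. Without that tumor 3 did, Vcan (1.36), Ly6c1 (0.84) and Ms4a4c (1.44), with a median of 0.62 beside 0.15 for all tested genes. For DOX over both antibodies 1 of 13 monocyte genes was higher at an unadjusted p below 0.05, F13a1 (0.76), against 11.9% of all, and limma called 0. In the fit without that tumor, in which Ly6c2 was called, 4 of 13 were higher, against 15.4% of all, and limma called 1 of them, Vcan (adjusted p 0.0700, and 0.690 with all tumors). Of 8 tested genes for receptors of S100A8 and S100A9 and their partners, 2 were higher at an unadjusted p below 0.05, Tlr4 (0.77) and Emb (1.09), with a median of 0.48, and without that tumor both again were and Bsg was lower (-0.90). For DOX over both antibodies 4 of these 8 were, Myd88 (0.57), Cd36 (1.32), Tlr4 (0.64) and Emb (0.97), against 11.9% of all, and limma called 0, while without DOX/IgG1 replicate 1 the count was again 4 and limma called 1, Emb (1.10, adjusted p 0.0988). Of 9 tested genes that supply or attract granulocytes, 0 had an unadjusted p below 0.05 by limma, with a median of 0.63, and 4 did without DOX/IgG1 replicate 1, with a median of 0.23. These were Kitl (1.15), Cxcl12 (1.26), Cxcl15 (1.85) and Cxcl1 (-1.55). For DOX over both antibodies 1 of 12 such genes was higher at an unadjusted p below 0.05, Kitl (0.61), against 11.9% of all, and limma called 0. In the fit without DOX/IgG1 replicate 1, 4 of 12 were higher, against 15.4% of all, and limma called 1. The 13 macrophage genes, led by Apoe (mean 799 TPM), and the 12 pan-leukocyte genes, led by Lcp1 (mean 103 TPM), held 0 at an unadjusted p below 0.05 by limma, with medians of 0.11 and 0.01. Both lists again held 0 without DOX/IgG1 replicate 1, with medians of 0.24 and 0.33 beside 0.15 for all tested genes. The summed TPM of the macrophage list was 1789, 1526 and 1537 in the IgG1 tumors and 1234, 1974 and 1677 in the DOX/IgG1 tumors and overlapped.

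Lists of other cells differed more once DOX/IgG1 replicate 1 was left out of the comparison with IgG1. Besides the salivary list, 3 lists then had at least 0.5 of their tested genes higher at an unadjusted p below 0.05, against 13.0% of all genes in either direction. Of 5 tested T cell genes, led by Cd3e (mean 7.89 TPM), 3 were, Cd3e, Cd3g and Cd8a, limma called Cd3g (adjusted p 0.0954), and the list median was 1.33, where the full comparison had 1 of 5 and a median of 0.48. The summed T cell list was at 23.2, 16.0 and 7.70 TPM with IgG1, 5.59, 17.1 and 8.81 TPM with anti-PD-1, 5.76, 49.2 and 43.3 TPM with DOX/IgG1 and 16.1, 17.2 and 32.8 TPM with DOX/anti-PD-1. Of 6 basal epithelial genes, led by Acta2 (mean 207 TPM), 3 were, Acta2 (1.55), Myh11 (1.77) and Oxtr (1.37), limma called 0, and the median was 1.19, where the full comparison had 0 of 6 and 0.29. Their sum was 392, 165 and 361 TPM with IgG1, 170, 273 and 262 TPM with anti-PD-1, 206, 583 and 875 TPM with DOX/IgG1 and 340, 411 and 521 TPM with DOX/anti-PD-1. No T cell or basal gene was at 0 in all tumors. For DOX over both antibodies limma called 0 basal and 0 T cell genes with all tumors, with 0 of 6 and 1 of 5 at an unadjusted p below 0.05, and called 3 of the 6 and 1 of the 5 without that tumor, against 2.04% of all. The mast cell and eosinophil list held 2 of 4, Mcpt4 and Cpa3, with a sum of 326 to 780 TPM that was 98.4% Kit and with Mcpt8 and Prg2 at 0. The part of these cells in the values of Ido1 and Ly6c2 was not tested.

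The 5 genes at 1 TPM or more in at least 3 tumors gave 10 pairs, and 0 had a permutation p, adjusted over the 10, below 0.1. The smallest unadjusted p was that of S100a8 and Ly6c2, with a Pearson r of -0.54 (permutation p 0.0710, adjusted p 0.710) and a Spearman rho of -0.26 (permutation p 0.411) over 12 tumors. Within the 6 tumors with DOX r was -0.71 (exact permutation p 0.15), and within the 6 without DOX it was -0.26 (exact permutation p 0.717). Without the same 2 tumors at 0 in S100a8, r was -0.45. Ido1 and Ly6c2 had an r of 0.28 (permutation p 0.374), which was 0.51 without DOX/IgG1 replicate 1.

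**Figure D5:**
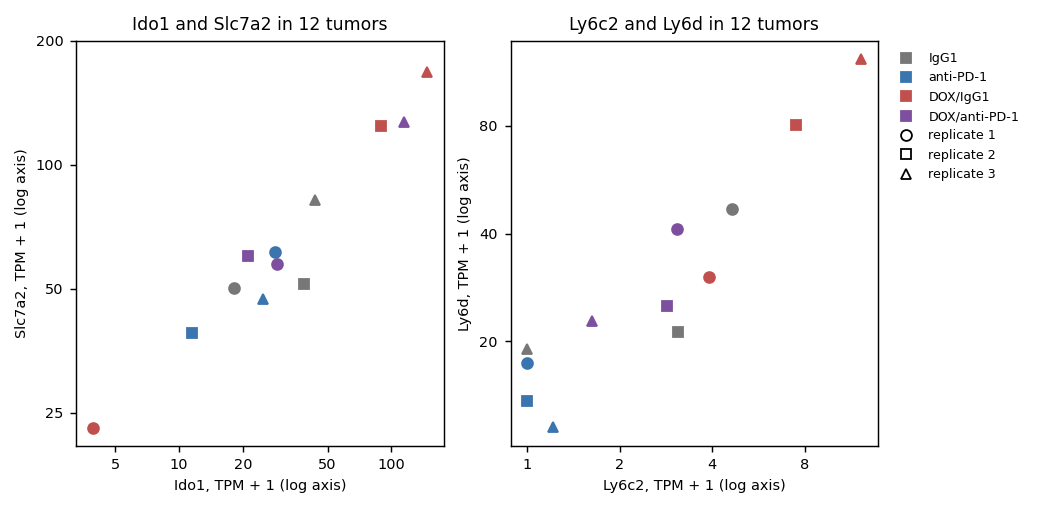
Ido1 against Slc7a2 (left) and Ly6c2 against Ly6d (right) in the 12 tumors, in TPM with 1 added on log axes, colored by group with markers for the replicate. Ido1 and Slc7a2 were lowest in DOX/IgG1 replicate 1 (2.93 and 22.0 TPM) and highest in DOX/IgG1 replicate 3 (146 and 167 TPM). Slc7a2 and Ly6d were picked for their likeness over these tumors.

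The genes most like each member over the 12 tumors, by Pearson r of log2(TPM + 1) among 14730 other genes, are named as a description with no test. For Ido1 they were Slc7a2 (r 0.97), Ifi213 (0.96), Gipc2 (0.94), Adra2c (0.93) and Mndal (0.93). Slc7a2 was at 49.4, 50.3 and 81.3 TPM in the IgG1 tumors, 60.5, 38.0 and 46.3 TPM with anti-PD-1, 22.0, 123 and 167 TPM with DOX/IgG1 and 56.6, 59.0 and 126 TPM with DOX/anti-PD-1. The 3 tumors high in Slc7a2, above 100 TPM, were the 3 highest in Ido1, and Slc7a2 was picked for its likeness over the same tumors. Ly6c2 was most like Ly6d (0.93), 345 kb from it on chromosome 15, then Amigo1, Prkcb, Igfbp4 and Dnah11. Ly6d was at 45.8, 20.3 and 18.0 TPM with IgG1, 16.4, 12.6 and 10.5 TPM with anti-PD-1, 29.2, 79.2 and 122 TPM with DOX/IgG1 and 40.1, 24.1 and 21.9 TPM with DOX/anti-PD-1. It was picked for its likeness to Ly6c2 over these tumors, so a like order of groups follows from that choice. For Csf3r the first was Rmi2 (0.94), for S100a8 Isca1 (0.89) and for S100a9 Sf3b6 (0.91), none of them a gene of the neutrophil list.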

How the data were processed

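The authors trimmed reads with skewer, aligned them to mm10 with STAR, quantified genes with RSEM and deposited log2(TPM + 1) for each tumor, which was turned back to TPM here; tool versions are not stated in the labels. Tests used limma 3.58.1 in R 4.3.3 (lmFit and trended eBayes, with two-sided p adjusted by Benjamini-Hochberg over all tested genes) on log2(TPM + 1), for genes at 1 TPM or more in at least 3 tumors of the fit. Permutation tests were written in Python 3.11.15 with numpy 2.4.6, exact or with 100000 resamples, and ranks came from scipy 1.17.1. Coordinates and transcripts were those of GENCODE on GRCm38. Named genes are the members, the up to 3 most abundant genes of a list, list genes with an unadjusted p below 0.05 in a comparison described, and the 5 genes most like a member; Mpo, Cxcr2, the neutrophil genes that reached 1 TPM and genes at 0 were named after their values were seen, and the salivary, T cell, basal, adipocyte, mast cell and eosinophil lists were picked for description after theirs were. The members and lists were chosen with earlier results of these data known. The list of other suppressive genes was also picked for description after its values were seen.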

Additional observations from a re-analysis of the deposited data

How the results depend on the processing

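The 27 fold changes of the described genes were recomputed 391 times, with a pseudocount of 0.1, no filter, 1 TPM in every tumor, the median of ratios, no trend, a replicate block, all 12 tumors in one fit, or 1 tumor left out with the tested genes held fixed. The sign turned in 22 of these, 20 with a tumor left out, and 1 passed both limits, Ly6c2 in DOX over both antibodies without DOX/IgG1 replicate 1. With a tumor left out, the log2 fold changes that turned ran, in DOX/IgG1 vs IgG1, from -0.75 to 1.87 for Ido1; in DOX/anti-PD-1 vs anti-PD-1, from -0.71 to 0.98 for S100a8; in anti-PD-1 vs IgG1, from -0.31 to 0.26 for Csf3r and -0.40 to 1.02 for S100a8. In DOX/anti-PD-1 vs DOX/IgG1 they ran from -1.47 to 1.14 for Ido1, in DOX over both antibodies from -0.22 to 0.12 for Csf3r and -0.95 to 0.0360 for S100a8, in anti-PD-1 over both arms from -1.06 to 0.25 for Ido1, and in the interaction from -0.83 to 1.78 for Ido1 and -0.83 to 0.28 for Ly6c2. With the median of ratios Csf3r in anti-PD-1 vs IgG1 was 0.00101, and with a pseudocount of 0.1 Ly6c2 in the interaction was 0.62. The cause was not tested.

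The count of called genes moved as follows. With a tumor left out it ran from 0 to 122 in DOX/IgG1 vs IgG1, 0 to 4 in each of DOX/anti-PD-1 vs anti-PD-1, anti-PD-1 vs IgG1 and DOX/anti-PD-1 vs DOX/IgG1, 0 to 301 in DOX over both antibodies, 0 to 5 in anti-PD-1 over both arms and 0 to 1 in the interaction. The count of called genes among those described ran from 0 to 1 in DOX over both antibodies. With no trend limma called 13 genes in DOX/IgG1 vs IgG1, 1 in anti-PD-1 vs IgG1 and 3 in each of DOX/anti-PD-1 vs anti-PD-1, DOX/anti-PD-1 vs DOX/IgG1, anti-PD-1 over both arms and the interaction. With 1 TPM in every tumor it called 2 in DOX/IgG1 vs IgG1, where fewer genes are tested, and 0 in anti-PD-1 over both arms and the interaction. With a pseudocount of 0.1 it called 6 in DOX over both antibodies and 0 in anti-PD-1 over both arms and the interaction. With the median of ratios it called 3 in DOX/anti-PD-1 vs DOX/IgG1 and 0 in anti-PD-1 over both arms and the interaction, with all 12 tumors in one fit 2 in DOX/anti-PD-1 vs DOX/IgG1, and with no filter 3 in the interaction. Counts at an unadjusted p below 0.05 were 703 in anti-PD-1 over both arms and 694 in the interaction in the limma fits as reported.

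The replicate block gave 2 called genes in DOX/IgG1 vs IgG1 and 0 in anti-PD-1 over both arms and the interaction. Between tumors with the same replicate number, deviations from the group mean correlated across genes at -0.10 to 0.13 in 18 pairs, 4 of them above 0.1, and the tumors were treated as unpaired.

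S100a8, S100a9, Csf3r, Retnlg, Ly6c2 and Nos2 have values at 0 beside values of a few TPM; depth and counts are unknown, so no floor can be given. The exact test of 3 tumors against 3 cannot go below 0.1, and that over both antibodies or arms not below 0.005. Flow cytometry and single-cell data were not analysed here, so the cells that hold each RNA are unknown.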
